A study of Mus musculus with 10 samples.

Results

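Interferon-stimulated genes and their regulators were followed in NIH3T3, a standard fibroblast line from mouse embryos, across 10 RNA sequencing libraries. The set was a list of 41 gene symbols, chosen by name and not by their values here, although earlier results of these data were known. A gene was taken where its symbol equalled that of a row in the table of expression values. Of the 41 genes, 30 had a row of their own and 28 of these passed the filter for testing, which was at least 1 RPKM in at least 2 of the 10 libraries. RPKM is the read count per kilobase of transcript and scaled to the mapped reads of the library, so levels of different genes are compared here per length. Another 5 genes shared a row with other genes, and 6 (Ifih1, Mx1, Mx2, Rsad2, Cmpk2 and Psmb8) were not analysed here. In all, 12842 of 18430 rows were tested.

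The libraries came from parental NIH3T3 cells, from cells that stably carried the empty vector, from 4 clones stably overexpressing FOXP2, a forkhead transcription factor, and from 4 clones stably overexpressing FOXP2-CPED1, which the series describes as an arrangement of FOXP2. Nothing else was added to the cells as far as the labels say, and interferon was not named as a treatment of any culture. The parental and the vector library together were the control, and the labels do not say whether the vector cells were a clone. Each clone gave 1 library, so a level in RPKM is given ± the SD between libraries (n = 4 for each construct, n = 2 for the control), while a log2 fold change or log2 difference is given ± its standard error from the model, and p-values rest on the spread between these cultures alone. Values of single libraries are given in the order parent and vector, then clones 1 to 4.

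Interferons are secreted proteins that bind receptors on the cell surface and act through JAK kinases and STAT proteins. Type I interferons act through a factor that contains STAT2 and IRF9 and binds the interferon-stimulated response element (ISRE), while interferon gamma acts on genes with a gamma-activated site (GAS). The genes switched on in this way sense foreign RNA and DNA, block steps of viral replication and load peptides for T cells, and fibroblasts keep many of them at a low level without infection.

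The elements themselves are shown for some of the genes described below. They are those among the 8 widest in range between clones that hold an element in the table (Gbp2, Gbp3, Stat2, Ifit1, Ifit2 and Irf1). Added to them are a gene with 1 clone far from the other 3 (Bst2) and the gene with the smallest p against the control (Eif2ak2). RefSeq promoters on GRCm38.p6, a later build than the mm9 used for the expression table, were matched by symbol for 34 of the 41 genes, and the window ran from 250 bases before to 50 after the start. Capitals mark a match to the ISRE core, GAAANNGAAA or its reverse complement TTTCNNTTTC, in the first 6 sequences and to the GAS core TTCNNNGAA in the last 2. Of the other members among the 8 widest, Xaf1 had no match to either core in this window and Parp9 is named only. Sequences are read 5′ to 3′ on the strand of the gene.
Gbp2, chr3:142620554-142620662, plus strand: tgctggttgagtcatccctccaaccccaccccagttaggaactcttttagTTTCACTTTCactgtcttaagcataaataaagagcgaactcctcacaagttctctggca
Gbp3, chr3:142559949-142560043, plus strand: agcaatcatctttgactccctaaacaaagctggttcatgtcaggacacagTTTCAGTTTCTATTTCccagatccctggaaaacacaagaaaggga
Stat2, chr10:128270248-128270335, plus strand: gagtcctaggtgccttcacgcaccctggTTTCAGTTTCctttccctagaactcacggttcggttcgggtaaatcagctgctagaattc
Ifit1, chr19:34640735-34640863, plus strand: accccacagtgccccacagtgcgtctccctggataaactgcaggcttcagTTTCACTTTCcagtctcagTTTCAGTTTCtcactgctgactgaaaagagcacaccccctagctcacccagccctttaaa
Bst2, chr8:71537537-71537652, minus strand: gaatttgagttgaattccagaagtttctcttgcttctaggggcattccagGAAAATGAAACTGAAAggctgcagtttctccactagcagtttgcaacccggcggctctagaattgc
Eif2ak2, chr17:78882537-78882562, minus strand: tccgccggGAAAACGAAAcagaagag
Irf1, chr11:53769874-53769982, plus strand: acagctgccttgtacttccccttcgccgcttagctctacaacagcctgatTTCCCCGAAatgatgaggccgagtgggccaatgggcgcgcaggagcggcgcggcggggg
Ifit2, chr19:34550444-34550511, plus strand: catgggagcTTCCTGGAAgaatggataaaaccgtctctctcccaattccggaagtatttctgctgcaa
The match in Gbp2 began 59 bases before the start and that in Stat2 222 bases before it, while the match in Eif2ak2 began 18 bases after it. Ifit1 held 2 separate matches, and the runs of capitals in Gbp3 and Bst2 are each 2 matches that overlap. The ISRE core stood in 13 of 34 matched members (38.2%) and in 1079 of 27025 genes of the same table (3.99%). The GAS core stood in 12 of 34 members (35.3%) and in 2582 of all genes (9.55%), and in Bst2 a GAS match overlapped an ISRE match. These matches describe letters in the window, and no binding was measured.

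The summed RPKM of a library lay between 794681.7 and 944602.2. Relative depth, read from the steps among low values, was 0.914 to 1.32 of the parental library, and the absolute depth is unknown, so no counting interval is given. Fibroblast markers were present, with 8 of 9 listed markers holding a row and all 8 at 1 RPKM or more, and Col1a1, Fn1 and Vim among them. Of 12 immune cell markers 2 had a row (Cd14 and Lyz2), and their summed level was 35.3 to 37.3 RPKM in the controls, 24.5 to 40.4 in FOXP2 clones and 26.7 to 46.7 in FOXP2-CPED1 clones. The other immune markers, Ptprc among them, were not analysed here. Of 7 epithelial and 6 endothelial markers, 2 and 1 had a row, with sums of 0.779 to 5.19 and 0.0182 to 0.536 RPKM over all libraries, and no marker with a row was at 0. The 2 mitochondrial rows of the table stood at 0 in 3 libraries (clones 2 and 4 of FOXP2, and clone 3 of FOXP2-CPED1), so results are also given without these 3 libraries where they differ.

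Before any comparison, most of the 28 tested members had a measurable level in every library, with a wide range between genes. B2m, the light chain of MHC class I, had the highest mean, 725 RPKM. Samhd1, an enzyme that depletes deoxynucleotides and so restricts viruses, followed with 35.7 RPKM, then Bst2 (tetherin, which holds budding virus at the membrane) with 34.4 and Irf3 with 23.4. At the other end Oasl2 averaged 0.773, Irf7 0.922, Parp14 1.00 and Ifit1 1.04 RPKM. Usp18, which removes ISG15 from proteins and dampens the type I receptor, reached 1.20 RPKM in FOXP2 clone 4 and stayed below 1 in the other 9 libraries. Ifi44 was the 1 silent member, with 0.882 RPKM in FOXP2-CPED1 clone 1 as its highest value.

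No member passed the threshold against the control or between the constructs. The test was limma on log2(RPKM + 1) over all tested rows, two-sided, with Benjamini-Hochberg adjustment and a threshold of 0.05. For FOXP2 against the control it called 0 of 28 members, beside 56 of all 12842 rows (0.436%), of which 5 were higher (0.0389%) and 51 lower (0.397%). For FOXP2-CPED1 against the control it called 0 members beside 45 rows (0.35%), 3 higher (0.0234%) and 42 lower (0.327%). Between the constructs it called 0 members and 0 rows (0%). At an unadjusted p under 0.05 the FOXP2 comparison held 2 members (7.14%, against 8.52% of all rows), 1 higher beside 3.44% of rows and 1 lower beside 5.08%. The FOXP2-CPED1 comparison held 4 members (14.3%, against 7.28%), 3 higher beside 2.67% and 1 lower beside 4.61%. Between the constructs 1 member (3.57%, against 2.16%) was higher in FOXP2-CPED1, beside 1.05% of rows higher and 1.11% lower.

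The precision of these comparisons is limited, and a missed threshold does not show equal levels. In bulk libraries such as these, fewer cells of a type and less RNA per cell cannot be told apart. The 95% interval of a member's difference from the control had a median half-width of 0.55 on the log2 scale, and 0.45 between the constructs. The median log2 fold change of the 28 members was -0.11 for FOXP2 (all rows 0.02), 0.03 for FOXP2-CPED1 (all rows 0.00) and 0.11 between the constructs (all rows -0.01). The FOXP2 median was 0.03 without FOXP2 clone 2 and 0.08 when the 3 libraries lacking mitochondrial values were left out. The median between the constructs likewise turned to -0.03 and -0.18 in these settings, so neither sign held. Leaving out the same 3 libraries also moved the FOXP2 values of Irf7 to -0.32, Psmb9 to -0.17 and Ifi35 to -0.14, and the difference of Xaf1 between the constructs from 0.43 to 0.04. The 2 comparisons with the control share the same 2 control libraries.

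**Figure D1:**
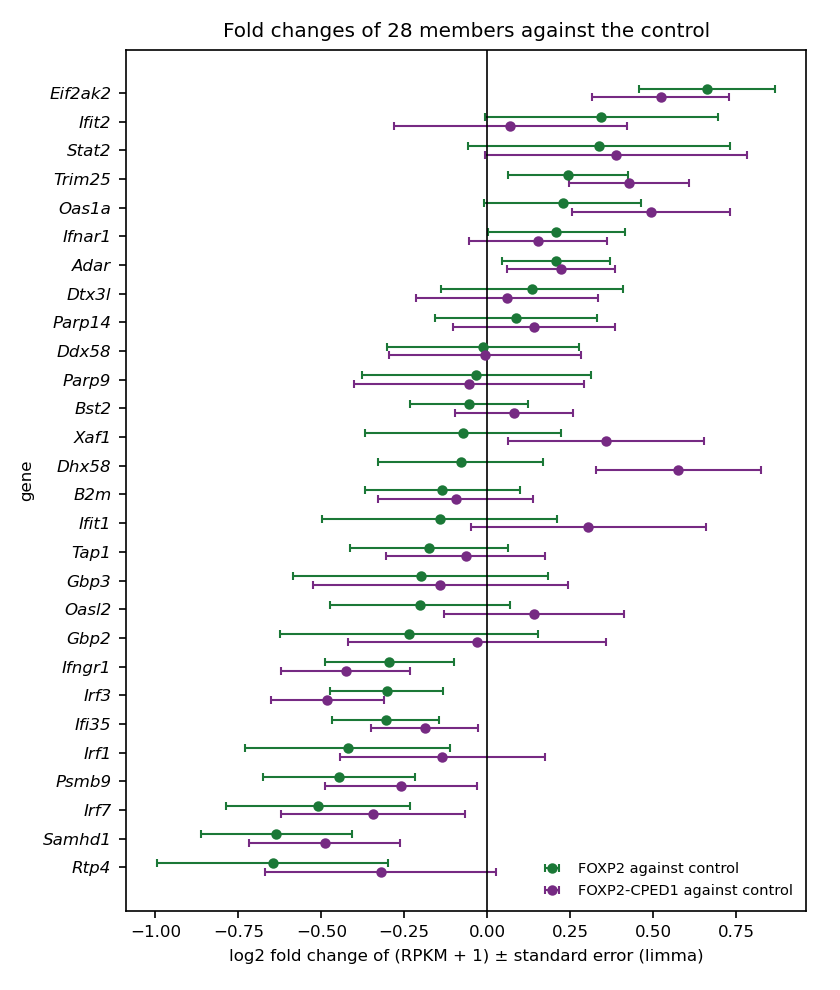
Log2 fold change of (RPKM + 1), with the standard error from limma as bars, for the 28 tested members in FOXP2 (green) and FOXP2-CPED1 clones (purple) against the control, ordered by the FOXP2 value. Eif2ak2 stands at the top with 0.66 and Rtp4 at the bottom with -0.65, and none passed the adjusted threshold.

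Among the receptors and signalling proteins, 6 of 9 listed members were tested, and their median log2 fold change was -0.30 for FOXP2 and -0.24 for FOXP2-CPED1 with 0 calls. Irf3, the factor that sensors of foreign nucleic acid activate to start interferon production, measured 28.8 and 29.0 RPKM in the controls, 22.4, 19.2, 26.4 and 25.8 RPKM in the FOXP2 clones, and 18.4, 23.1, 22.9 and 17.9 RPKM in the FOXP2-CPED1 clones. Every clone lay below both controls. The log2 fold change was -0.30 ± 0.17 (adjusted p = 0.704) for FOXP2 and -0.48 ± 0.17 (adjusted p = 0.501) for FOXP2-CPED1 by limma. Irf7, which amplifies interferon alpha transcription, measured 1.27 and 1.49 RPKM in the controls, 1.07, 0.317, 0.747 and 0.633 RPKM in the FOXP2 clones, and 0.557, 1.13, 1.56 and 0.442 RPKM in the FOXP2-CPED1 clones. The FOXP2 clones were all below the controls, at a log2 fold change of -0.51 ± 0.28 (adjusted p = 0.698), whereas FOXP2-CPED1 clone 3 lay above both.

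Stat2, a transcription factor of the type I response, measured 4.65 and 4.53 RPKM in the controls, 7.86, 2.36, 8.60 and 7.72 RPKM in the FOXP2 clones, and 5.69, 7.10, 8.52 and 4.56 RPKM in the FOXP2-CPED1 clones. FOXP2 clones 1, 3 and 4 were above the controls and FOXP2 clone 2 was at about the midpoint between 0 and the control level, so the mean of 6.64 ± 2.88 RPKM hides values on both sides of the control. Irf1, a transcription factor induced by interferon gamma, measured 23.9 and 20.6 RPKM in the controls, 18.7, 10.04, 22.6 and 16.7 RPKM in the FOXP2 clones, and 20.8, 27.0, 21.2 and 13.7 RPKM in the FOXP2-CPED1 clones. Its lowest value was in FOXP2 clone 2 and its highest in FOXP2-CPED1 clone 2, and the arms overlapped. Ifngr1, a receptor chain for interferon gamma, measured 22.4 and 24.4 RPKM in the controls, 22.7, 15.0, 19.7 and 18.9 RPKM in the FOXP2 clones, and 14.9, 21.1, 18.8 and 14.5 RPKM in the FOXP2-CPED1 clones. All 4 FOXP2-CPED1 clones were below both controls, with a log2 fold change of -0.43 ± 0.20 (adjusted p = 0.688). Ifnar1, a chain of the type I receptor, ranged over 10.5 to 19.3 RPKM with its lowest value in FOXP2 clone 2 and its highest in FOXP2 clone 3.

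Of the sensors and first effectors of foreign RNA and DNA, 6 of 7 were tested, with a median log2 fold change of 0.10 for FOXP2 and 0.32 for FOXP2-CPED1 and 0 calls. Eif2ak2 encodes PKR, a kinase that stops translation when it binds double-stranded RNA. It measured 7.85 and 7.68 RPKM in the controls, 12.8, 9.0, 16.1 and 14.7 RPKM in the FOXP2 clones, and 10.7, 10.6, 12.3 and 13.0 RPKM in the FOXP2-CPED1 clones. All 8 clones were above both controls. The log2 fold change was 0.66 ± 0.21 (adjusted p = 0.336) for FOXP2, with a 95% interval of 0.20 to 1.12, and 0.52 ± 0.21 (adjusted p = 0.578) for FOXP2-CPED1, with an interval of 0.06 to 0.98. Leaving out the 3 libraries that lacked mitochondrial values, these were 0.81 and 0.50 (adjusted p = 0.233 and 0.49 by limma).

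Samhd1 went the other way and measured 47.3 and 48.4 RPKM in the controls, 36.0, 24.0, 37.5 and 26.4 RPKM in the FOXP2 clones, and 25.7, 39.7, 39.7 and 32.1 RPKM in the FOXP2-CPED1 clones. All 8 clones were below both controls, at a log2 fold change of -0.64 ± 0.23 (adjusted p = 0.419) for FOXP2 and -0.49 ± 0.23 (adjusted p = 0.697) for FOXP2-CPED1. The FOXP2 value was -0.37 when the same 3 libraries were left out (adjusted p = 0.618 by limma). Trim25, a ubiquitin ligase that acts on RIG-I, measured 8.87 and 9.16 RPKM in the controls, 10.3, 8.76, 14.5 and 10.5 RPKM in the FOXP2 clones, and 11.9, 11.7, 13.9 and 12.4 RPKM in the FOXP2-CPED1 clones. The FOXP2-CPED1 clones were all above the controls, with a log2 fold change of 0.43 ± 0.18 (adjusted p = 0.647), and FOXP2 clone 2 lay just below them.

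Dhx58 encodes LGP2, a helicase that modulates the RIG-I and MDA5 sensors. It measured 1.01 and 0.821 RPKM in the controls, 0.506, 0.556, 1.66 and 0.716 RPKM in the FOXP2 clones, and 1.85, 1.58, 2.23 and 1.78 RPKM in the FOXP2-CPED1 clones. The FOXP2-CPED1 clones were all above the controls, and FOXP2 clone 3 was the single FOXP2 clone within their range. The log2 fold change was 0.58 ± 0.25 (adjusted p = 0.661) for FOXP2-CPED1 against the control and 0.66 ± 0.20 (adjusted p = 0.9998) between the constructs, where it had the smallest p of all members. The 95% interval between the constructs was 0.20 to 1.11 on the log2 scale. Leaving out the same 3 libraries, this difference was 0.45 (adjusted p = 0.761 by limma). Ddx58, the RIG-I sensor, ranged over 3.32 to 8.97 RPKM and Adar, which edits adenosine in double-stranded RNA, over 10.3 to 14.9 RPKM, with the arms overlapping for both.

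**Figure D2:**
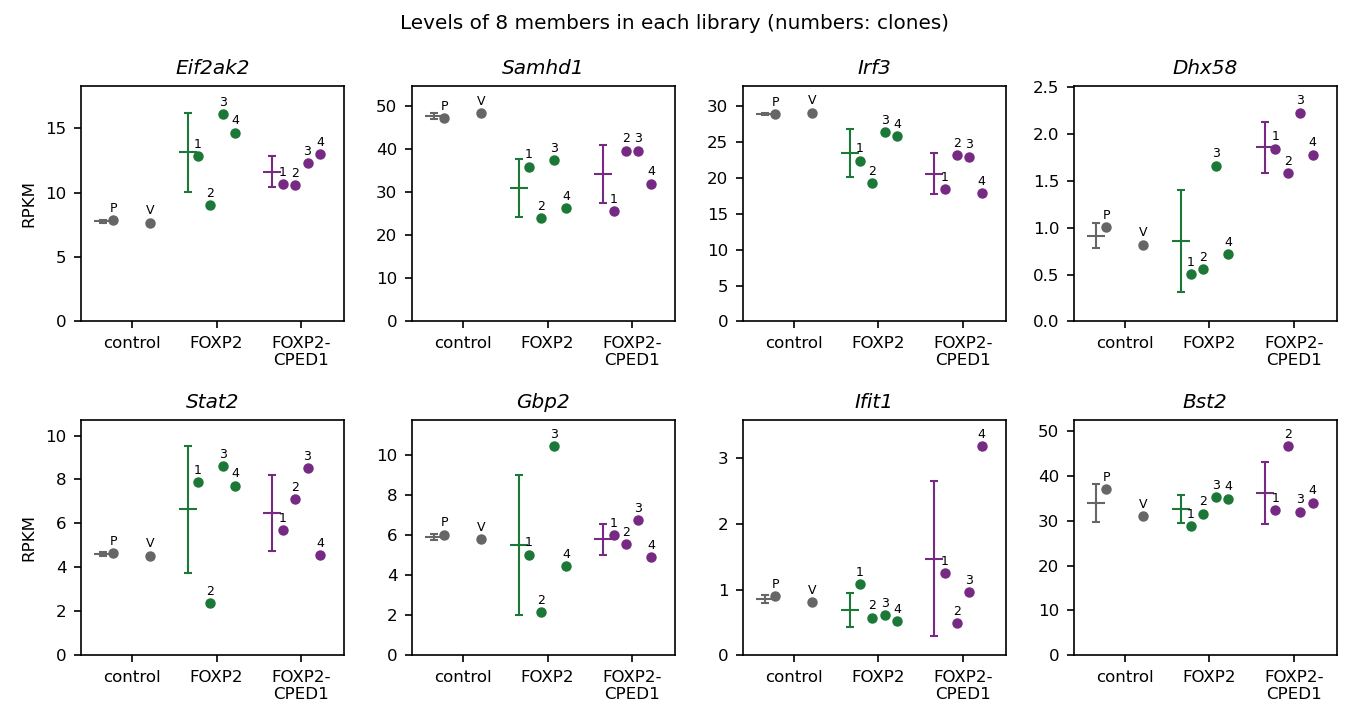
RPKM of 8 members in each library, with dots for libraries (P parent, V vector, numbers for clones) and horizontal bars with whiskers for the mean and SD of each arm. Eif2ak2 is above and Samhd1 and Irf3 are below both controls in all 8 clones, while Stat2 and Gbp2 spread to both sides of the controls among FOXP2 clones.

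The antiviral effectors were the largest group, with 13 of 21 listed members tested, a median log2 fold change of -0.07 for FOXP2 and 0.07 for FOXP2-CPED1, and 0 calls. Oas1a makes the oligoadenylates that switch on RNase L, and it measured 1.72 and 1.66 RPKM in the controls, 1.67, 2.07, 2.47 and 2.45 RPKM in the FOXP2 clones, and 3.12, 1.80, 2.51 and 4.08 RPKM in the FOXP2-CPED1 clones. All FOXP2-CPED1 clones were above the controls, at a log2 fold change of 0.49 ± 0.24 (adjusted p = 0.712). Xaf1, an antagonist of the apoptosis inhibitor XIAP, measured 8.41 and 8.03 RPKM in the controls, 8.80, 4.21, 11.9 and 7.94 RPKM in the FOXP2 clones, and 12.4, 9.90, 11.7 and 9.49 RPKM in the FOXP2-CPED1 clones. It too was above the controls in all FOXP2-CPED1 clones, at 0.36 ± 0.30 (adjusted p = 0.868), while FOXP2 clone 2 had about a midway value between 0 and the controls. Ifi35, an interferon-induced leucine zipper protein, measured 18.6 and 17.7 RPKM in the controls, 14.3, 12.6, 18.8 and 13.0 RPKM in the FOXP2 clones, and 15.3, 16.2, 16.2 and 15.6 RPKM in the FOXP2-CPED1 clones. The FOXP2-CPED1 clones lay close together and below the controls, at -0.19 ± 0.16 (adjusted p = 0.872), and the FOXP2 value was -0.31 ± 0.16 (adjusted p = 0.682) with clone 3 above both controls.

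The Ifit proteins bind viral RNA. Ifit1 measured 0.902 and 0.807 RPKM in the controls, 1.08, 0.571, 0.605 and 0.514 RPKM in the FOXP2 clones, and 1.25, 0.492, 0.957 and 3.18 RPKM in the FOXP2-CPED1 clones. FOXP2-CPED1 clone 4 stood alone above the rest, and the log2 difference between the constructs was 0.45 ± 0.29 (adjusted p = 0.9998). Ifit2 measured 9.76 and 11.3 RPKM in the controls, 15.3, 17.3, 6.59 and 19.0 RPKM in the FOXP2 clones, and 10.7, 8.37, 13.9 and 11.9 RPKM in the FOXP2-CPED1 clones. FOXP2 clone 3 had the lowest value of the 10 libraries and FOXP2 clones 1, 2 and 4 the 3 highest, the reverse of the order of most other members between FOXP2 clones 2 and 3. Oasl2, an oligoadenylate synthetase-like protein, measured 0.909 and 0.638 RPKM in the controls, 0.653, 0.223, 1.08 and 0.323 RPKM in the FOXP2 clones, and 1.35, 0.515, 0.89 and 1.14 RPKM in the FOXP2-CPED1 clones. The log2 difference between the constructs was 0.34 ± 0.22 (adjusted p = 0.9998), with overlapping clones. Ifit, Oas and Gbp genes have near-identical relatives in the mouse genome, so reads shared between copies make their values less certain.

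The guanylate-binding proteins, GTPases that attack the vacuoles of intracellular pathogens, varied most. Gbp2 measured 6.01 and 5.79 RPKM in the controls, 5.01, 2.15, 10.4 and 4.43 RPKM in the FOXP2 clones, and 5.99, 5.53, 6.73 and 4.90 RPKM in the FOXP2-CPED1 clones. Gbp3 measured 2.70 and 1.35 RPKM in the controls, 2.05, 0.289, 2.94 and 1.81 RPKM in the FOXP2 clones, and 1.60, 1.55, 1.86 and 1.71 RPKM in the FOXP2-CPED1 clones. For both genes FOXP2 clone 2 was the lowest and FOXP2 clone 3 the highest of the 10 libraries, and for Gbp3 the 2 controls themselves were apart. Parp9, an ADP-ribosyltransferase family member that forms a complex with the ubiquitin ligase Dtx3l, measured 8.53 and 8.76 RPKM in the controls, 10.3, 4.01, 13.1 and 8.92 RPKM in the FOXP2 clones, and 7.36, 9.48, 9.94 and 6.73 RPKM in the FOXP2-CPED1 clones. Its extremes were again FOXP2 clones 2 and 3.

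Bst2 measured 37.0 and 31.0 RPKM in the controls, 28.8, 31.6, 35.3 and 35.0 RPKM in the FOXP2 clones, and 32.4, 46.7, 32.1 and 34.0 RPKM in the FOXP2-CPED1 clones. FOXP2-CPED1 clone 2 was above the other 9 libraries, and the arms overlapped. The remaining effectors had their lowest value in FOXP2 clone 2 or 4. Dtx3l ranged over 2.25 to 5.85 RPKM, Parp14 over 0.425 to 1.37 RPKM and Rtp4, a chaperone of membrane receptors, over 1.49 to 6.11 RPKM, the last with its highest value in the parental library.

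In antigen processing 3 of 4 listed members were tested, with a median log2 fold change of -0.17 for FOXP2 and -0.09 for FOXP2-CPED1 and 0 calls. Psmb9, a catalytic subunit of the immunoproteasome, measured 4.00 and 2.90 RPKM in the controls, 2.96, 1.56, 2.92 and 1.78 RPKM in the FOXP2 clones, and 2.75, 2.60, 3.19 and 2.28 RPKM in the FOXP2-CPED1 clones. The parental library was the highest and FOXP2 clone 2 the lowest, with a log2 fold change of -0.45 ± 0.23 (adjusted p = 0.671) for FOXP2. B2m measured 796 and 731 RPKM in the controls, 791, 602, 783 and 624 RPKM in the FOXP2 clones, and 832, 811, 807 and 478 RPKM in the FOXP2-CPED1 clones. FOXP2-CPED1 clone 4 was the lowest of all libraries, and the other 3 clones of that construct were above both controls. Tap1, which carries peptides into the endoplasmic reticulum, ranged over 4.95 to 10.8 RPKM between FOXP2 clone 2 and FOXP2 clone 3.

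**Figure D3:**
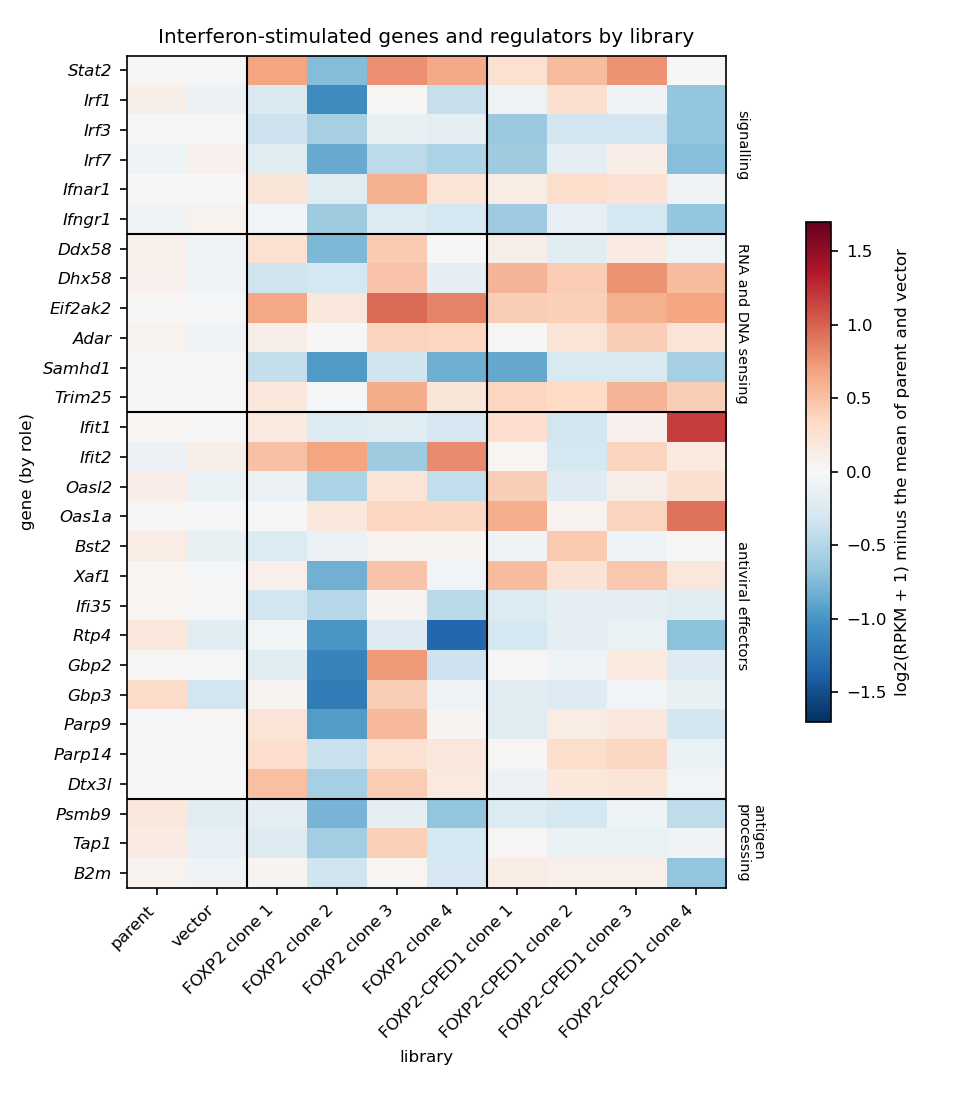
Heat map of log2(RPKM + 1) minus the mean of parent and vector for the 28 tested members (rows, by role) in each library (columns), from blue (lower than the control mean) to red (higher). The column of FOXP2 clone 2 is blue in most rows, with a member median of -0.56, and that of FOXP2 clone 3 is red in most, with a median of 0.31.

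For the 28 tested members with a row of their own, the arms were also compared by whether any clone overlapped the controls. For FOXP2, 1 member (3.57%) was above both controls in every clone, beside 9.13% of all rows, and 3 members (10.7%) were below, beside 10.4%. These were Eif2ak2 above, and Samhd1, Irf3 and Irf7 below. For FOXP2-CPED1, 5 members (17.9%) were above, beside 12.2% of rows, namely Eif2ak2, Trim25, Dhx58, Oas1a and Xaf1. In the same comparison 4 (14.3%) were below, beside 13.3%, namely Irf3, Samhd1, Ifngr1 and Ifi35. Eif2ak2, Irf3 and Samhd1 were thus apart in both comparisons, which share the same controls. The share of all rows with all 8 clones on the same side of the controls was not computed. Between the constructs 0 members were apart in either direction, beside 0.576% of rows higher and 0.802% lower.

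FOXP2 clone 2 was low and FOXP2 clone 3 high for many of these genes. FOXP2 clone 2 had the lowest value of the 10 libraries for 17 of 28 members, and for 16.8% of all tested rows. It had the highest value for 0 members, although it did so for 23.6% of all rows. FOXP2 clone 3 was highest for 10 members, beside 15.9% of all rows. Among tested members with a promoter entry, FOXP2 clone 2 was lowest for 4 of 9 with an ISRE match and 11 of 15 without. The same counts held for GAS. FOXP2 clone 3 was highest for 5 of 9 members with an ISRE match and 4 of 15 without, and for 3 of 9 and 6 of 15 by GAS. A relation to these elements was not tested. Relative to the control mean, the median member stood at -0.56 in FOXP2 clone 2 and 0.31 in FOXP2 clone 3 on the log2 scale. The medians were 0.02 and -0.11 in FOXP2 clones 1 and 4, and 0.02, -0.01, 0.12 and -0.07 in FOXP2-CPED1 clones 1 to 4. The same medians over all rows lay within -0.01 and 0.01 in every clone.

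Of the 28 members 27 were lower in FOXP2 clone 2 than in FOXP2 clone 3, beside 47.5% of all rows, with Ifit2 as the exception. The ratio of clone 3 to clone 2 was 10.2 for Gbp3, 4.86 for Oasl2, 4.85 for Gbp2, 3.64 for Stat2, 3.27 for Parp9 and 0.381 for Ifit2. Among the 4 FOXP2 clones, 16 members had their lowest value in clone 2 and their highest in clone 3, beside 13.5% of all rows. They covered every role and included Stat2, Irf1 and Ifnar1 in signalling, Ddx58, Eif2ak2, Adar and Samhd1 in sensing, Gbp2, Gbp3, Xaf1 and Parp9 among effectors, and Tap1 in antigen processing. These are 1 library each and the 2 clones were singled out after their values were seen, so the pattern is a description with no test. Among the tested genes of the pathway outside the 28 members, those lower in FOXP2 clone 2 than in FOXP2 clone 3 outnumbered those higher. Their share was not computed, and the genes named next are examples from each side. Stat3 (58.9 and 153 RPKM in FOXP2 clones 2 and 3) and Ifitm3 (534 and 1257) went the same way. Mlkl (72.4 and 33.7), Lap3 (61.4 and 40.0) and Mb21d1 (6.05 and 2.42) went the other way.

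Some other measures also differed between these 2 libraries. The summed level of 8 fibroblast markers was 5945 RPKM in FOXP2 clone 2 and 8326 in FOXP2 clone 3, the lowest and highest of the FOXP2 clones, and 9009 to 9116 in the controls. Vim, a fibroblast marker, went the other way, at 2420 RPKM in clone 2 and 1295 in clone 3. The summed level of the 2 immune cell markers with a row was 33.3 RPKM in clone 2 and 40.4 in clone 3, beside 33.0 in clone 1 and 24.5 in clone 4, and Cd14 alone was at 19.6 and 17.2 in clones 2 and 3. Relative depth was 1.10 and 1.01 of the parental library in clones 2 and 3, and 1.19 in clone 4. Mitochondrial values were lacking in clone 2 but not in clone 3. FOXP2 clone 4 and FOXP2-CPED1 clone 3, which lacked them too, had member medians of -0.11 and 0.12. The part of these measures in the pattern was not tested.

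**Figure D4:**
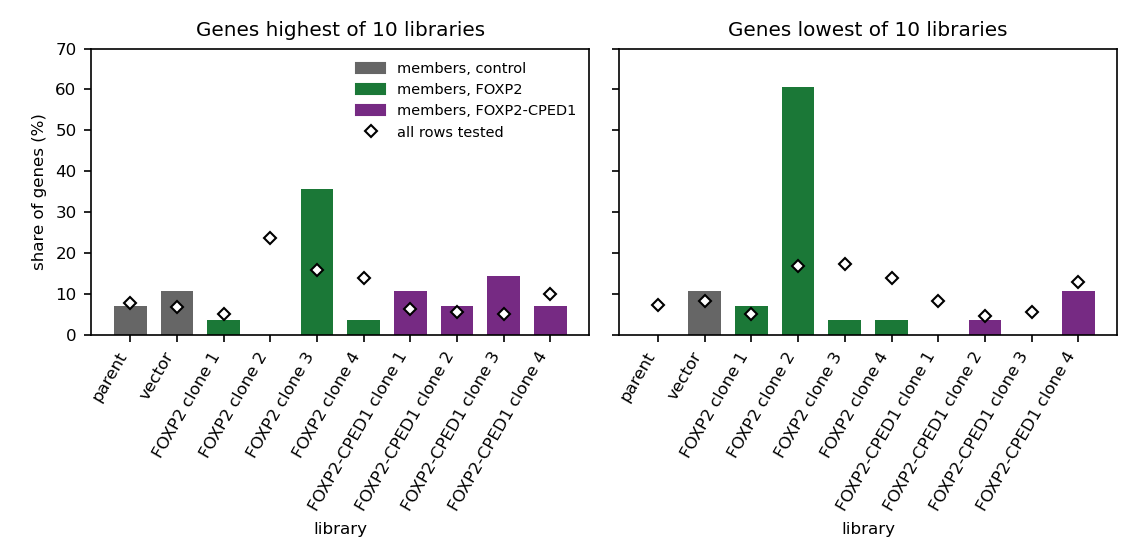
Share of genes (%) whose highest (left) or lowest (right) value of the 10 libraries fell in each library, as bars for the 28 tested members and diamonds for all 12842 tested rows. FOXP2 clone 2 holds the lowest value of 17 members and the highest of 0, and FOXP2 clone 3 the highest of 10.

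Over all members the SD of log2(RPKM + 1) between FOXP2 clones had a median of 0.34, from 0.13 for Bst2 to 0.76 for Gbp2, beside 0.30 for all rows. Between FOXP2-CPED1 clones the median was 0.21, from 0.04 for Ifi35 to 0.63 for Ifit1, beside 0.23 for all rows. The range was wider over FOXP2 than over FOXP2-CPED1 clones for 22 of 28 members (78.6%), beside 68.7% of all rows.

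Several members lie next to each other in the genome, and 6 pairs within 100 kb of each other were compared over the 8 clones. The pairs were taken by position after the data had been seen. Members that lie far apart were not correlated, and 27 of 28 members were lower in FOXP2 clone 2 than in FOXP2 clone 3, as described above. Whether neighbours moved together more than other members was therefore not tested, and the p-values below concern each pair alone. Levels of Dtx3l and Parp9 moved together, with a Pearson r of 0.953 (adjusted p = 0.0122) and a Spearman rho of 0.952 (adjusted p = 0.00685), by exact permutation tests adjusted over the 6 pairs. The r was 0.970 without the 2 clones farthest from the median of Dtx3l. Parp14 correlated with Parp9 at r = 0.929 (adjusted p = 0.0127) and with Dtx3l at r = 0.902 (adjusted p = 0.0144) by the same exact test. The rho was 0.786 for each (adjusted p = 0.0559), and r was 0.654 and 0.765 without the 2 farthest clones.

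Gbp2 and Gbp3, whose promoter sequences above each hold an ISRE match, correlated at r = 0.907 (adjusted p = 0.0345, exact permutation test) with a rho of 0.548 (adjusted p = 0.257). Without FOXP2 clones 2 and 3 the r was -0.199, so this relation rests on those 2 clones. Psmb9 and Tap1, whose starts point away from each other across 225 bases, gave r = 0.686 (adjusted p = 0.0587, exact permutation test) and a rho of 0.5 (adjusted p = 0.259). That r was 0.0675 without FOXP2 clones 2 and 4. Ifit1 and Ifit2 gave r = 0.00242 (adjusted p = 0.923, exact permutation test) and a rho of -0.119 (adjusted p = 0.793). The 4 clones of a construct, and the 5 and 3 clones with and without mitochondrial values, are too few for a correlation within them.

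**Figure D5:**
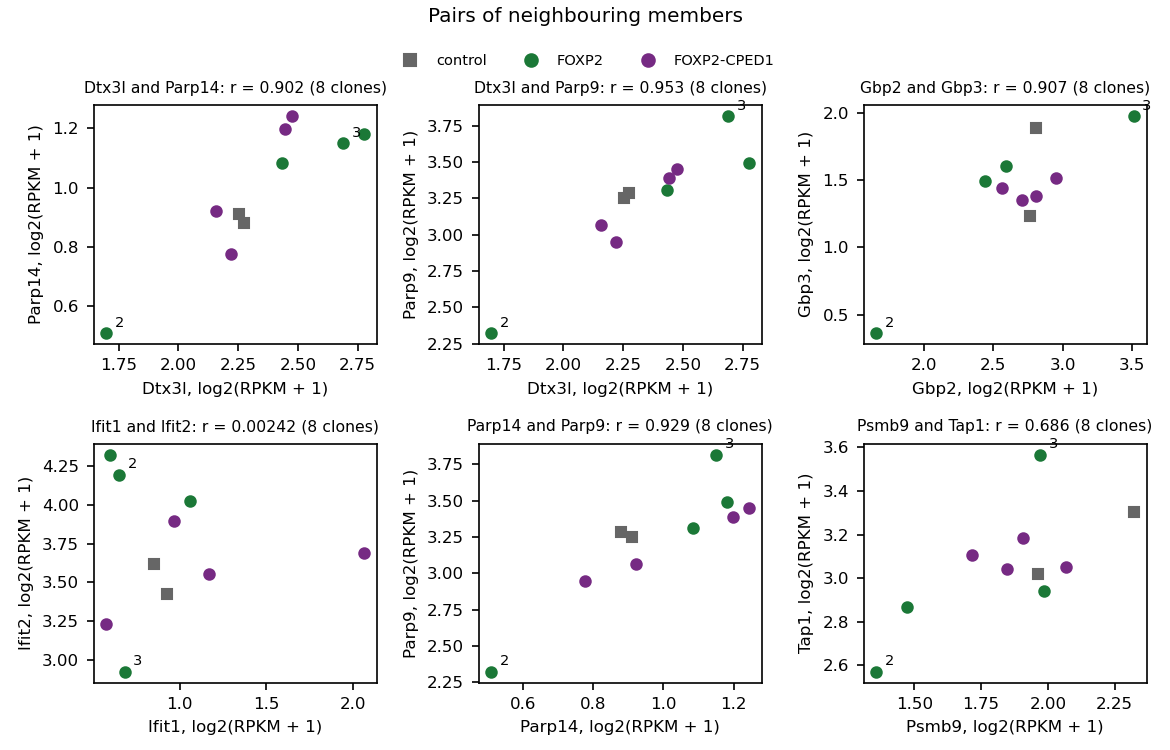
Log2(RPKM + 1) of 6 pairs of neighbouring members in each library, with circles for clones (green FOXP2, purple FOXP2-CPED1), squares for controls, and numbers marking FOXP2 clones 2 and 3. Dtx3l and Parp9 line up over the whole range (r = 0.953), whereas the r of 0.907 for Gbp2 and Gbp3 is set by the points of clones 2 and 3.

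The 5 members in joined rows have values that cannot be assigned to a single gene. The row of Isg15 with Klhl17 and Plekhn1 measured 16.0 and 15.2 RPKM in the controls, 17.1, 11.9, 18.8 and 12.3 RPKM in the FOXP2 clones, and 17.8, 15.6, 21.6 and 34.1 RPKM in the FOXP2-CPED1 clones, with FOXP2-CPED1 clone 4 the highest, as for Ifit1. The row of Irf9 with Rnf31 ranged over 8.81 to 19.4 RPKM, that of Ifnar2 with Il10rb and Gm21970 over 34.4 to 76.5 RPKM, that of Ifit3 with Ifit3b over 2.83 to 8.83 RPKM and that of Isg20 with Aen over 53.9 to 102 RPKM. The first 2 of these were highest in FOXP2 clone 3, as Stat2 and Ifnar1 were. The row of Isg20 went the other way between FOXP2 clones 2 and 3, at 98.9 and 56.9 RPKM. All FOXP2-CPED1 clones were above both controls for the row of Irf9 and below both for that of Ifit3. The log2 fold changes were 0.44 ± 0.29 (adjusted p = 0.826) and -0.61 ± 0.33 (adjusted p = 0.744) by limma. Of all tested rows 12.2% were above and 13.3% below in this way.

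Other genes of the pathway gave the same counts of calls. Of 151 further symbols, 90 had a row of their own, 83 passed the filter and 0 were called in any comparison. The 10 interferon genes listed, Ifnb1 among them, had 0 rows of their own and were not analysed here. The smallest adjusted p for FOXP2 was that of Traf3, an adaptor below the sensors, at 5.50 ± 0.992 RPKM in the controls and 8.92 ± 1.12 in FOXP2 clones (adjusted p = 0.348 by limma). For FOXP2-CPED1 it was Irf2bp2, a corepressor that binds IRF2, at 44.5 ± 6.78 RPKM in the controls and 30.4 ± 4.45 in the clones (adjusted p = 0.365 by limma). Ifi27l2a, an interferon-induced gene, was at 66.6 ± 7.15 RPKM in the controls, 26.9 ± 13.6 in FOXP2 clones and 29.7 ± 13.8 in FOXP2-CPED1 clones. Its log2 fold changes were -1.40 ± 0.48 (adjusted p = 0.38) and -1.25 ± 0.48 (adjusted p = 0.551) by limma. Ube2l6, which conjugates ISG15, was at 20.3 ± 2.25 RPKM in the controls and 13.9 ± 1.00 in FOXP2 clones (adjusted p = 0.499 by limma).

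Between the constructs the smallest p among these genes was that of Lgals9, a galectin, at 76.2 ± 5.68 RPKM in FOXP2 and 92.4 ± 3.70 in FOXP2-CPED1 clones (adjusted p = 0.9998 by limma). Psme2, a subunit of the proteasome activator, was at 51.8 ± 16.4 and 75.3 ± 23.8 RPKM. Irf5, a transcription factor below Toll-like receptors, was at 1.73 ± 0.0832 RPKM in the controls, 0.978 ± 0.204 in FOXP2 and 1.496 ± 0.539 in FOXP2-CPED1 clones. Erap1, which trims peptides for MHC class I, was at 2.72 ± 0.00103, 4.00 ± 1.24 and 4.25 ± 0.848 RPKM in the same order. Tap2, the partner of Tap1, was at 37.8 ± 2.46, 30.7 ± 8.73 and 35.5 ± 4.13 RPKM. Phf11d was at 0.574 ± 0.236, 1.64 ± 0.32 and 1.82 ± 1.16 RPKM. Irf2, Ptpn1, Ifi202b, Rnaseh2c, Daxx and H2-K1, which also had a smallest or second smallest p in a list, did not pass either. Among other signalling genes the median log2 fold change was -0.12 for FOXP2 (4 of 14 positive) and -0.10 for FOXP2-CPED1 (4 of 14 positive). Among other induced genes it was -0.03 (21 of 45 positive) and 0.06 (23 of 45 positive).

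A fit with library quality weights was the 1 setting that called any member. It called 5 of 28 members for FOXP2 (17.9%), beside 2095 of all rows (16.3%), namely Stat2, Eif2ak2 and Dtx3l higher and Irf3 and Ifi35 lower. FOXP2 clone 2 was nevertheless below both controls for Stat2 (2.36 RPKM) and Dtx3l (2.25), and FOXP2 clone 3 above both for Ifi35 (18.8). The weighted fit called 4 for FOXP2-CPED1 (14.3%), beside 929 rows (7.23%), namely Eif2ak2, Trim25 and Dhx58 higher and Irf3 lower. Between the constructs it called 0 members and 4 rows (0.0311%). Across the other settings the smallest adjusted p of any member was 0.0612 for FOXP2, 0.159 for FOXP2-CPED1 and 0.397 between the constructs by limma.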

How the data were processed

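RNA of 10 NIH3T3 cultures (parent, vector, 4 FOXP2 clones and 4 FOXP2-CPED1 clones) was sequenced from Trizol-extracted total RNA, per the labels' protocols. The authors deposited 1 table of RPKM values with a column per library. HISAT2, StringTie and mm9 are named in the submitters' processing notes. The sources used here do not give versions, annotation, strand setting or filters. Of 18430 rows, 3581 name no gene (3.37 to 4.54% of the summed RPKM) and were left out of the tests.

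Values were taken as log2(RPKM + 1), so fold changes of low genes are understated. Rows that reached 1 RPKM in at least 2 libraries (12842) were fitted in 3 arms with limma 3.58.1 in R 4.3.3, with a trend in the empirical Bayes prior. P-values were adjusted by Benjamini-Hochberg over all rows, and the script was tested on simulated data. Library values are printed for members with the 4 smallest p of a comparison, the 8 widest clone ranges, the 4 highest means, or arms apart from the control. Correlations used exact permutation tests in scipy 1.17.1. The members, lists and neighbouring pairs were chosen with earlier results of these data known. Alternatives covered pseudocounts of 0.1 and 0.25, filters, scaling, trend, weights, arms, the clone number as a block, and libraries left out. Leaving out FOXP2 clones 2 and 3 together, and the pseudocount of 0.1 for correlations, were added after seeing the data.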

Additional observations from a re-analysis of the deposited data

Results flagged for a closer look

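In each construct the 4 clones were screened for a single value far from the other 3, by setting its gap to the nearest clone, as a share of the whole range on the log2(RPKM + 1) scale, against Dixon's critical value for 4 samples at the 95% level. Of 56 groups (28 members in 2 constructs), 4 (7.14%) stood out, chance alone gives about 1 in 20, and over all tested rows 1869 of 25684 such groups (7.28%) stood out, so the members' share was near the background. Stat2 was at 2.36 RPKM in FOXP2 clone 2, far below the other 3 FOXP2 clones. Parp14, an ADP-ribosyltransferase, was at 0.425 RPKM in the same clone, again the lowest, but on the RPKM scale its gap share was 0.824, below the critical value, while the other 3 genes were past it on both scales. Bst2 was at 46.7 RPKM in FOXP2-CPED1 clone 2, above the other 3 clones of that construct. B2m was at 478 RPKM in FOXP2-CPED1 clone 4, below the other 3.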

How the results depend on the processing

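No member was called in any setting except library quality weights, which called 5 for FOXP2 and 4 for FOXP2-CPED1. Of 396 values of single members under alternatives (19 results), 389 kept their direction and side of the threshold, 7 passed it under these weights, and 0 were reversed. Calls over all rows for FOXP2 (56) became 37 with a pseudocount of 0.1, 2095 with weights, 9 with only the arms compared and 23 without the 3 libraries with mitochondrial rows at 0. Leaving out 1 library gave 2 (without the parent) to 64. For FOXP2-CPED1 (45) they became 28 with a pseudocount of 0.1, 929 with weights, and 0 (without the parent) to 57 with 1 library left out. Between the constructs (0) they became 4 with weights, 1 without FOXP2 clones 2 and 3, and 0 to 1 with 1 library left out. The members' median between the constructs (0.11) was 0.0158 with weights, -0.18 without the 3 libraries with mitochondrial rows at 0, and -0.0285 (without FOXP2 clone 2) to 0.22 (without FOXP2 clone 3) with 1 library left out. The cause of these shifts was not tested.

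With the clone number as a replicate block between the constructs, 0 members and 0 rows were called and the median was 0.11. Clones of the same number correlated at -0.04, -0.24, 0.28 and 0.17 in their deviations. The best match was the clone of the same number for number 4 but not for numbers 1, 2 and 3. Whether the numbers pair the clones was not tested. With 2 controls, 1 of each kind, and unknown depth, low members such as Oasl2, Irf7 and Ifit1 are the least certain.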
